A study of Mus musculus with 6 samples.

Results

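The serpins are a family of proteins that mostly inhibit proteases, and alpha-1-antitrypsin (AAT), the protein given to 1 group of these mice, is the family's best known member. The genes described here are those whose symbol starts with Serpin in the array's annotation, taken from probe sets with 1 symbol. There were 40 such genes among 18193 genes with a probe set of 1 symbol, and each was read from its probe set with the highest mean signal over the 6 arrays. A mean-signal filter of 164 left 18 of the 40, among 13058 genes tested. The other 22 lay under the filter and are described by their signals and by a fit run without the filter.

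The study hybridised fat RNA from NOD mice, which spontaneously become diabetic through autoimmune loss of beta cells, to Affymetrix arrays, with 2 arrays for each of 3 groups. AAT-treated mice had received alpha-1-antitrypsin, and their diabetes had reverted stably, so that they no longer needed insulin. Diabetic mice had blood glucose above 300 mg/dl on 3 days in a row, and normoglycemic mice were females aged 10 weeks. All 3 groups were NOD. The labels give no age or sex for the AAT-treated and diabetic mice, no depot of fat, and no dose, schedule or species of origin of the AAT protein. A treated mouse of this kind differs from a diabetic one both in having had AAT and in having reverted, so those cannot be told apart here. Whether arrays of the same group stem from separate mice is not stated, and the p-values therefore reflect the spread between these samples alone, which may be technical.

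A typical serpin presents an exposed loop as bait to its target protease. Once the protease cuts the loop, the serpin snaps into another shape and traps the enzyme in a covalent complex that is then cleared. Circulating serpins of this kind, made mostly by the liver, restrain neutrophil elastase, thrombin and the first complement protease, whereas those of clade B stay inside cells and guard against proteases such as cathepsin G and granzyme B. A few members inhibit no protease and serve instead as hormone carriers, chaperones or signalling proteins.

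The tissue label matched its markers. The adipocyte genes Adipoq, which encodes adiponectin, and Fabp4, the fatty acid carrier, had signals of at least 15689.8 and 85600.2 on all arrays. Beta-actin control probes at the 3′ end, set against those at the 5′ end, give a ratio that goes up with RNA breakdown or incomplete copying. It was 5.87 to 9.08 in AAT-treated fat, 15.2 to 15.5 in diabetic fat and 3.63 to 4.30 in normoglycemic fat, so the groups did not overlap. The mean signal of the 18 hybridisation control probe sets, transcripts added in fixed amounts, was 86286 on AAT-treated 2 and 128547 on normoglycemic 1, against 25159 to 48494 on the other 4 arrays. Results that rest on these arrays are also given without them, an alternative chosen after seeing the data. No pair of arrays held identical values.

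None of the 18 serpins passed an adjusted p of 0.05 in any comparison by limma, and neither did any other gene (0% of 13058 in each comparison). The log2 differences below are of log2(signal + 74), which understates differences of weakly expressed genes, and carry the moderated SE with 2 arrays a group. An exact permutation test of 2 arrays against 2 cannot go below a two-sided p of 0.333, so single genes were tested by the fit alone. Between probe sets of different genes no levels are compared, because signal also depends on the probes. The comparisons share arrays, since each group enters 2 of the 3.

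Mice carry several copies of the gene for alpha-1-antitrypsin, the inhibitor of neutrophil elastase, side by side on chromosome 12. The copies resemble each other so closely that an array probe made for 1 of them can bind transcripts of another. The promoters of the copies are alike too, and a stretch of 86 bases near the annotated start of each of 5 copies is printed here. The stretches are from RefSeq promoters (GRCm38.p6), all on the minus strand. They lie mostly before the start, so they cannot show which transcripts a probe binds, and that was not tested. Capitals mark the CCAAT box, read on either strand, and the letters GTTAAT, which form part of the site bound by the liver factor HNF1 and overlap the second CCAAT box by 1 base.
Serpina1a, chr12:103863595-103863680, minus strand: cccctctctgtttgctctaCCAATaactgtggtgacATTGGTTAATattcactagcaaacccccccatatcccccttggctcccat
Serpina1b, chr12:103738170-103738255, minus strand: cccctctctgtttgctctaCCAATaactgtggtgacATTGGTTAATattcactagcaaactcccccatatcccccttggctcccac
Serpina1c, chr12:103904932-103905017, minus strand: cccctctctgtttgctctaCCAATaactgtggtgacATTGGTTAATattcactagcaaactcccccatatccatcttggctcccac
Serpina1d, chr12:103773604-103773689, minus strand: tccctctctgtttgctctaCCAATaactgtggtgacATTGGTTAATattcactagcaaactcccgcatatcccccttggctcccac
Serpina1e, chr12:103956930-103957015, minus strand: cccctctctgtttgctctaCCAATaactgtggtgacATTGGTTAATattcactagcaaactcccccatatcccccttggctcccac
The windows of Serpina1b and Serpina1e had 0 differing bases, and all other pairs differed by 2 or 4. GTTAAT lay 26 bases before the annotated start in Serpina1b, and 16 to 78 bases before it in the other 4 copies. Among all 32851 promoters of 300 bases in the table, 7.10% held GTTAAT, 37.4% held CCAAT and 13.6% held TATAAA, of which the 5 copies had 0 matches, with both strands searched each time. A C/EBP pattern, TTNCNNAA, was found in 4 of the 5 copies and in 40.7% of all promoters. These matches describe the letters only.

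Among the 18 kept serpins, Serpina1b had the largest difference from normoglycemic fat, both in AAT-treated and in diabetic mice. Its signal was 1593 and 456 in AAT-treated fat, 683 and 1438 in diabetic fat, and 30.0 and 231 in normoglycemic fat. The normoglycemic mean of 130.5 lay under the filter of 164, which was applied to the mean over all arrays. Normoglycemic 1 also lay under the offset of 74, while normoglycemic 2 lay above the filter. The size of both differences from normoglycemic fat therefore depends on weak signals. All 4 arrays of the AAT-treated and diabetic groups lay above both normoglycemic arrays, while the AAT-treated and diabetic arrays overlapped. The log2 difference was 2.59 ± 0.68 for diabetic against normoglycemic fat (limma, unadjusted p = 0.00485, adjusted p = 0.459) and 2.40 ± 0.68 for AAT-treated against normoglycemic fat (unadjusted p = 0.0073, adjusted p = 0.875). Both comparisons use the same normoglycemic arrays. AAT-treated against diabetic fat differed by -0.19 ± 0.68, and this value turned to 0.64 without AAT-treated 2 and without both arrays of bright hybridisation controls, and also turned without diabetic 2. In bulk tissue, fewer cells that make a transcript and less of it per cell cannot be told apart.

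The size of the Serpina1b difference depended on single arrays. Its direction against normoglycemic fat could not turn when an array was left out, because the groups did not overlap. Leaving out each array in turn gave 1.81 to 3.36 for diabetic against normoglycemic fat, lowest without normoglycemic 1 and highest without normoglycemic 2. For AAT-treated against normoglycemic fat the range was 1.57, without AAT-treated 1, to 3.23, without AAT-treated 2. Without both arrays of bright hybridisation controls the values were 1.81 and 2.45. A smaller offset of 16 gave 3.24 and 3.03.

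**Figure D1:**
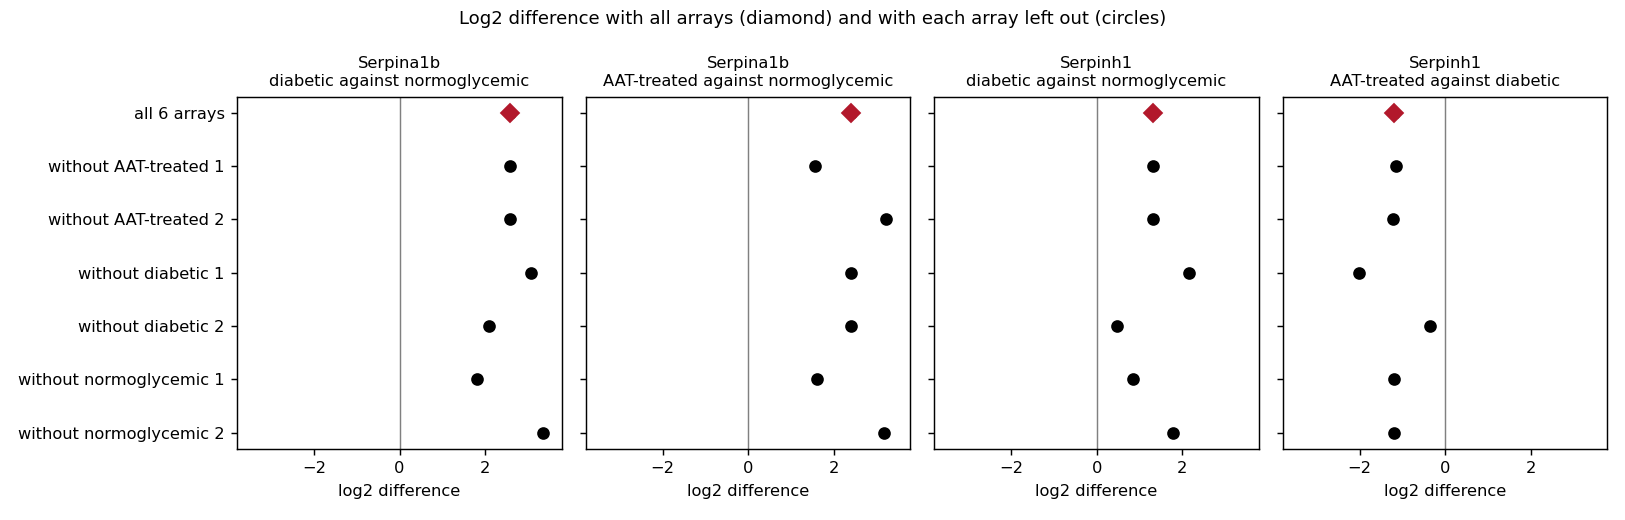
Log2 difference (x axis) of Serpina1b and Serpinh1 with all 6 arrays (diamond, top row) and with each array left out in turn (circles). Against normoglycemic fat Serpina1b ranges from 1.57 to 3.36, and its groups do not overlap, so no left-out array can turn the sign. Once diabetic 2 is left out, Serpinh1 is 0.49 for diabetic against normoglycemic fat and -0.35 for AAT-treated against diabetic fat.

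The second probe set named for Serpina1b gave the same picture, with signals of 1328 and 456 in AAT-treated fat, 628 and 1214 in diabetic fat, and 45.6 and 271 in normoglycemic fat. Both of these probe sets are of the class that the manufacturer marks as able to bind other transcripts, so they are not independent of the other copies. Serpina1c, another copy, showed another order: 100.4 and 740.1 in AAT-treated fat, 258 and 1160.4 in diabetic fat, and 633 and 273 in normoglycemic fat. Its groups overlapped in all 3 comparisons, and the log2 differences were -0.76 ± 0.82 for AAT-treated against diabetic, 0.37 ± 0.82 for diabetic against normoglycemic and -0.40 ± 0.82 for AAT-treated against normoglycemic fat. Leaving out 1 array turned the sign of each of these.

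The remaining copies were measured by probe sets that lay under the filter. A probe set named for both Serpina1d and Serpina1a read 25.02 and 223 in AAT-treated fat, 7.53 and 284 in diabetic fat, and 101 and 2.56 in normoglycemic fat. One named for Serpina1e, Serpina1c and Serpina1b together read at most 68.5 on any array. Serpina1f, a more distant relative, read 6.26 and 167 in AAT-treated fat, 102 and 3.55 in diabetic fat, and 119 and 47.7 in normoglycemic fat. The groups overlapped in all of these, except that the set of 3 names read 4.99 and 23.7 in AAT-treated fat, below 48.3 and 28.5 in normoglycemic fat.

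**Figure D2:**
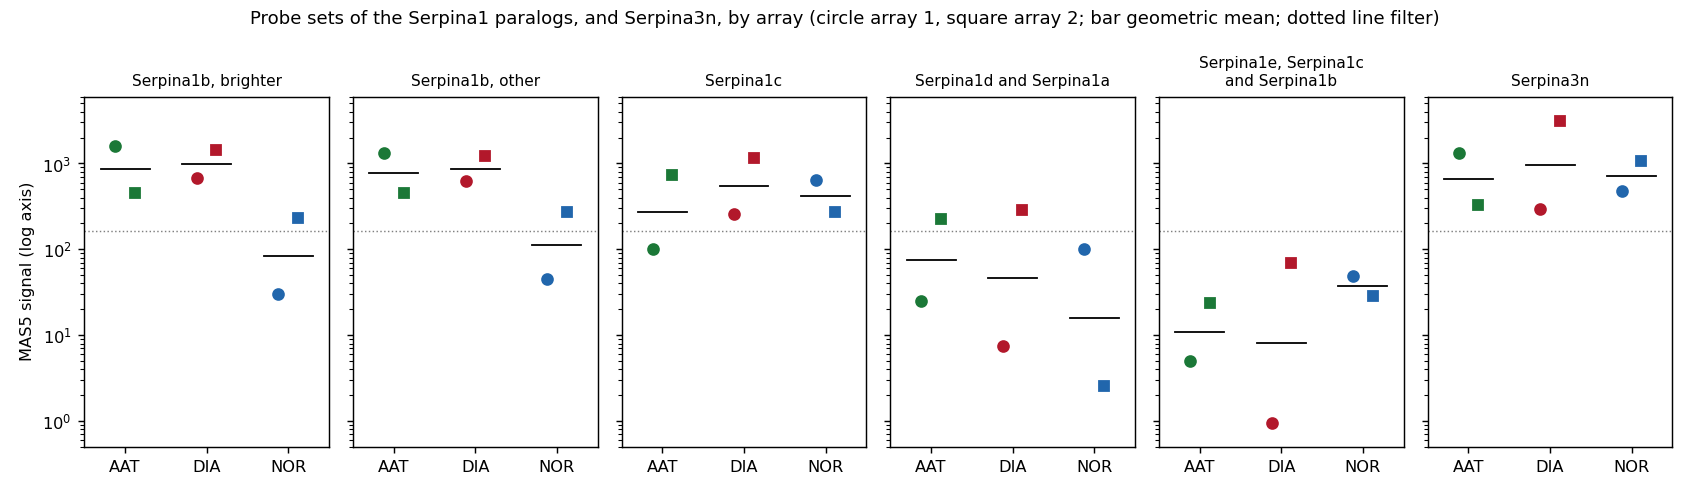
MAS5 signal (log axis) on each array for the probe sets of the Serpina1 copies and of Serpina3n, with groups from left to right AAT-treated (AAT), diabetic (DIA) and normoglycemic (NOR), a circle for array 1, a square for array 2, a bar for the geometric mean and a dotted line at the filter of 164. The pair of Serpina1b probe sets separates both normoglycemic arrays from the other 4, and no other panel does.

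Liver transcripts were looked at beside Serpina1b because hepatocytes are the main source of AAT. Of 18 hepatocyte markers 12 passed the filter. The summed signal of all 18 was 42185 to 58397 in AAT-treated fat, 51544 to 59031 in diabetic fat and 66492 to 134683 in normoglycemic fat. Most of it came from Cyp2e1, an enzyme that fat also expresses. Albumin (Alb) read 546 and 1586 in AAT-treated fat, 448 and 1696 in diabetic fat, and 969 and 1019 in normoglycemic fat, and its groups overlapped. Apoa1, the main protein of high-density lipoprotein, read 119.7 and 942 in AAT-treated fat, 273 and 680 in diabetic fat, and 20.8 and 15.4 in normoglycemic fat. Like Serpina1b, Apoa1 was higher on all 4 arrays of the other groups than on both normoglycemic ones, by 2.47 ± 0.78 for diabetic and 2.27 ± 0.78 for AAT-treated against normoglycemic fat (limma, unadjusted p = 0.0125 and 0.0189). The list did not share this. Of the 12 kept genes, 6 lay above 0 for diabetic and 3 for AAT-treated against normoglycemic fat, beside 46.4% and 48% of all genes. At an unadjusted p under 0.05, 1 was higher and 0 lower in the first comparison, beside 5.27% and 4.62% of all genes. In the second, 1 was higher and 1 lower, beside 3.43% and 1.72%. Ttr, the thyroxine carrier transthyretin, read 31.7 and 2591 in AAT-treated fat, 184 and 2521 in diabetic fat, and 28.9 and 134 in normoglycemic fat, so AAT-treated 2 and diabetic 2 stood far above the rest. The fibrinogen chains Fga, Fgb and Fgg lay under the filter, but Fga was highest on the same arrays, at 334 and 335, and Fgg on diabetic 2, at 218, while Fgb read at most 55.5 on any array. Ahsg, for fetuin-A, read 4.23 and 11.6 in AAT-treated fat, 125 and 137 in diabetic fat, and 10.9 and 7.67 in normoglycemic fat. The part of liver transcripts or of the beta-actin ratio in the Serpina1b values was not tested.

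Neutrophil elastase, the main target of AAT, was scarcely measured. Its gene Elane read at most 88.1, and Ctsg, for cathepsin G, at most 32.7. Signals were summed over the 12 neutrophil markers with a probe set, of which 7 passed the filter. The sum was 1435 and 2062 in AAT-treated fat, 1903 and 2094 in diabetic fat, and 2982 and 1528 in normoglycemic fat, with overlapping groups. The markers did not move alike. Csf3r, the receptor of a granulocyte growth factor, was the 1 gene of the 7 past an unadjusted p of 0.05. It differed by 1.37 ± 0.52 for diabetic against normoglycemic fat, where 5.27% of all genes were higher at that level. Csf3r and S100a8 were higher on both diabetic than on both normoglycemic arrays, and Ngp, Ltf and Mpo were lower. Of all genes, 20.2% were higher and 24.5% lower in that way. Prtn3, for proteinase 3, another target of AAT, read 438 and 263 in AAT-treated fat, 41.1 and 716 in diabetic fat, and 68.6 and 343 in normoglycemic fat. The receptors that clear serpin complexes lay above normoglycemic fat in part. Vldlr, the very low density lipoprotein receptor, differed by 1.27 ± 0.44 for diabetic and by 1.92 ± 0.44 for AAT-treated against normoglycemic fat. Sorl1, a sorting receptor of the same family, differed by 0.99 ± 0.40 for diabetic and 0.32 ± 0.40 for AAT-treated against normoglycemic fat. Lrp1, which takes up AAT complexes, differed by 0.89 ± 0.49 and 0.60 ± 0.49 in the same comparisons and did not pass in either, and AAT-treated 2 lay below both normoglycemic arrays. At an unadjusted p under 0.05, 2 of the 7 measured receptors (Vldlr and Sorl1) were higher in diabetic than in normoglycemic fat, beside 5.27% of all genes, and 1 (Vldlr) was higher in AAT-treated than in normoglycemic fat, beside 3.43%.

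Serpina3n, an acute-phase inhibitor related to human antichymotrypsin, spread widely within each group. Its signal was 1331 and 329 in AAT-treated fat, 296 and 3108 in diabetic fat, and 478 and 1070.2 in normoglycemic fat. The lowest and the highest of the 6 values were both in the diabetic group, and all groups overlapped. The log2 differences were -0.53 ± 0.96 for AAT-treated against diabetic, 0.45 ± 0.96 for diabetic against normoglycemic and -0.08 ± 0.96 for AAT-treated against normoglycemic fat. Diabetic against normoglycemic fat gave 2.0 without diabetic 1, while its sign turned without diabetic 2, at -1.10, and without normoglycemic 1, at -0.08.

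Diabetic 2 also had the highest signal of haptoglobin (Hp), another acute-phase protein, which read 6265 and 791 in AAT-treated fat, 4675 and 32971 in diabetic fat, and 3331 and 3903 in normoglycemic fat. Among 22 measured acute-phase genes the median log2 difference was -0.23, 0.29 and 0.17 for AAT-treated against diabetic, diabetic against normoglycemic and AAT-treated against normoglycemic fat, beside 0.01, -0.06 and -0.03 over all genes. Cebpd, a transcription factor of the acute-phase response, differed by 1.62 ± 0.32 for AAT-treated against diabetic and by -1.45 ± 0.32 for diabetic against normoglycemic fat. Cebpd also belongs to the glucocorticoid-response genes, of which 16 were measured. At an unadjusted p under 0.05, 7 of them were higher and 0 lower in AAT-treated than in diabetic fat, beside 2.95% and 1.83% of all genes. For diabetic against normoglycemic fat 1 was higher and 4 lower, beside 5.27% and 4.62%, and for AAT-treated against normoglycemic fat 5 were higher and 0 lower, beside 3.43% and 1.72%. Smooth muscle markers differed between the same groups, with 11 of 11 higher at that level in AAT-treated than in diabetic and 11 of 11 in AAT-treated than in normoglycemic fat, and their part in the serpin values was not tested. Serpina3i, another gene of the Serpina3 cluster, read 203 and 362 in AAT-treated fat, 214 and 185 in diabetic fat, and 458 and 172 in normoglycemic fat, with overlap in every comparison.

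Among the kept serpins of clotting and complement, Serping1 differed most between AAT-treated and normoglycemic fat. It encodes the C1 inhibitor, which holds back the first complement proteases and plasma kallikrein. Its signal was 6519 and 5376 in AAT-treated fat, 2604 and 5629 in diabetic fat, and 3324 and 3027 in normoglycemic fat. Both AAT-treated arrays lay above both normoglycemic ones, while diabetic 1 had the lowest signal of all and diabetic 2 lay between the AAT-treated arrays. The log2 difference was 0.88 ± 0.41 for AAT-treated against normoglycemic fat (limma, unadjusted p = 0.0602, adjusted p = 0.923) and stayed between 0.75 and 1.02 with any array left out. AAT-treated against diabetic fat differed by 0.62 ± 0.41 and diabetic against normoglycemic fat by 0.27 ± 0.41, which turned to -0.28 without diabetic 2. AAT-treated against diabetic fat was 0.07 without diabetic 1 and 1.16 without diabetic 2.

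Proteases that C1 inhibitor blocks did not pass the unadjusted level for AAT-treated or diabetic against normoglycemic fat. For AAT-treated against normoglycemic fat, C1ra and C1s1, for the proteases of the first complement component, differed by 0.65 ± 0.44 and 0.72 ± 0.33. Both were higher without overlap of the groups, as were 16% of all genes. Masp1 and Masp2, for the proteases of the lectin pathway, differed by -0.18 ± 0.49 and -0.33 ± 0.53. For diabetic against normoglycemic fat C1ra and C1s1 differed by 0.26 ± 0.44 and 0.39 ± 0.33, and Masp1 and Masp2 by -0.71 ± 0.49 and -0.26 ± 0.53. Of all 14 complement genes measured, 3 were higher and 0 lower in diabetic than in normoglycemic fat at an unadjusted p under 0.05, against 5.27% and 4.62% of all genes. C1qb and C1qc, chains of the recognition molecule C1q, differed by 2.12 ± 0.49 and 1.89 ± 0.58, and Cfp, for properdin, by 0.90 ± 0.35. For AAT-treated against normoglycemic fat, C1qc was the single complement gene past that level, at 2.10 ± 0.58 (3.43% of all genes were higher). C1q is made largely by macrophages. The signals of 15 macrophage markers, 14 of them past the filter, were summed. The sum was 24866 and 15076 in AAT-treated fat, 23943 and 38206 in diabetic fat, and 11537 and 11029 in normoglycemic fat.

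Serpinc1 encodes antithrombin, the inhibitor of thrombin and factor Xa. Its signal was 142 and 304 in AAT-treated fat, 196 and 191 in diabetic fat, and 176 and 104 in normoglycemic fat. Both diabetic arrays lay just above both normoglycemic arrays, by a log2 difference of 0.34 ± 0.52, which is smaller than its error. Serpina10, the protein Z-dependent inhibitor of factor Xa, went the other way. It read 153 and 431 in AAT-treated fat, 359.7 and 207 in diabetic fat, and 438 and 481 in normoglycemic fat, so that both normoglycemic arrays lay above the other 4. The log2 difference was -0.66 ± 0.48 for AAT-treated and -0.61 ± 0.48 for diabetic against normoglycemic fat, and the first of these was -0.08 without AAT-treated 1.

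Of 11 measured coagulation genes, 4 were higher in diabetic than in normoglycemic fat at an unadjusted p under 0.05 and 0 lower, beside 5.27% and 4.62% of all genes. Kng1, for kininogen, differed by 2.04 ± 0.44, and the factor XIII subunit F13a1, a macrophage transcript too, by 1.89 ± 0.41. Procr, the receptor of protein C, differed by 2.09 ± 0.72 and tissue factor (F3) by 1.52 ± 0.62. For AAT-treated against normoglycemic fat 3 were higher, beside 3.43% of all genes, while for AAT-treated against diabetic fat F13a1 alone was past that level, at -1.20 ± 0.41 (1.83% of all genes were lower). Of 9 measured genes of the plasminogen system, 1 was past that level in each comparison. The share of all genes past it in either direction was 4.78% for AAT-treated against diabetic fat. It was 9.89% for diabetic and 5.15% for AAT-treated against normoglycemic fat. Plat, for tissue plasminogen activator, differed by 0.96 ± 0.36 for AAT-treated against diabetic fat, the gelatinase Mmp2 by 1.10 ± 0.32 for diabetic against normoglycemic fat, and the urokinase receptor Plaur by -0.95 ± 0.41 for AAT-treated against normoglycemic fat.

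Clade B, the intracellular serpins, supplied 9 of the 18 kept genes. Serpinb6b, a relative of the cathepsin G inhibitor Serpinb6a, had the largest difference between diabetic and normoglycemic fat among these 9. It read 1302 and 2740.1 in AAT-treated fat, 716 and 1328 in diabetic fat, and 2180.2 and 1825 in normoglycemic fat. Both diabetic arrays lay below both normoglycemic arrays, and only diabetic 2 and AAT-treated 1 crossed, at nearly equal signals. The log2 difference was 0.90 ± 0.44 for AAT-treated against diabetic fat (limma, unadjusted p = 0.072, adjusted p = 0.961) and -0.98 ± 0.44 for diabetic against normoglycemic fat (unadjusted p = 0.0554, adjusted p = 0.512). These values share the diabetic arrays. They ranged over 0.39 to 1.42 and over -1.39 to -0.56 with an array left out, and AAT-treated against diabetic fat was lowest without AAT-treated 2 and highest without AAT-treated 1. Diabetic against normoglycemic fat was -0.56 without diabetic 1 and -1.39 without diabetic 2.

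Serpinb6a itself had 5082 and 3374 in AAT-treated fat, 3603 and 3656 in diabetic fat, and 1863 and 4141 in normoglycemic fat. The low value of normoglycemic 1 set its differences, which were 0.56 ± 0.43 for AAT-treated and 0.37 ± 0.43 for diabetic against normoglycemic fat. Without that array, diabetic against normoglycemic fat gave -0.19. Serpinb6e read 550.5 and 1576 in AAT-treated fat, 1198 and 943 in diabetic fat, and 1521 and 787 in normoglycemic fat, and its groups overlapped throughout.

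Serpinb1a, a cytoplasmic inhibitor of elastase and cathepsin G, was a little higher on the 4 arrays of the other groups than on the normoglycemic ones. Its signal was 259.7 and 397 in AAT-treated fat, 304 and 289.8 in diabetic fat, and 197 and 202 in normoglycemic fat. The log2 differences were 0.54 ± 0.40 for AAT-treated and 0.44 ± 0.40 for diabetic against normoglycemic fat, and 0.10 ± 0.40 for AAT-treated against diabetic fat. A second Serpinb1a probe set gave 0.59 and 0.52 in the same comparisons. There too the diabetic arrays lay above both normoglycemic ones, while the AAT-treated arrays overlapped them.

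Serpinb9, the inhibitor that shields cytotoxic lymphocytes from their own granzyme B, read 1347 and 891 in AAT-treated fat, 1023 and 765 in diabetic fat, and 989 and 1591 in normoglycemic fat. The groups of this probe set overlapped in every comparison. A second probe set read 420 and 352 in AAT-treated fat, 498 and 496 in diabetic fat, and 525 and 530.2 in normoglycemic fat, without overlap in any comparison. The sets had opposite signs for AAT-treated against diabetic fat, at 0.29 ± 0.37 for the first and -0.32 for the second. Serpinb9b, which inhibits granzyme M, read 213 and 591 in AAT-treated fat, 435 and 319 in diabetic fat, and 749 and 155 in normoglycemic fat, with differences between -0.03 and 0.04. Of the 7 measured granzyme and cytotoxic cell genes, 0 reached an unadjusted p under 0.05 in any comparison. Of all genes, 4.78% did for AAT-treated against diabetic, 9.89% for diabetic against normoglycemic and 5.15% for AAT-treated against normoglycemic fat. Nearest was Gzma, for granzyme A, at -1.24 ± 0.55 for AAT-treated against diabetic fat (limma, unadjusted p = 0.0521). In that comparison 6 of the 7 lay above 0, beside 51.2% of all genes. A probe set shared by Serpinb9h, Serpinb9g, Serpinb9e and Serpinb9f read 151 and 517 in AAT-treated fat, 335 and 139 in diabetic fat, and 908 and 256 in normoglycemic fat.

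Serpinb8, an inhibitor of furin, varied least of the 18 relative to its signal, with 278 and 222 in AAT-treated fat, 328 and 257 in diabetic fat, and 322 and 225 in normoglycemic fat. Serpinb11 read 195 and 369.5 in AAT-treated fat, 215 and 179 in diabetic fat, and 469 and 203 in normoglycemic fat. Serpinb5, or maspin, a clade B protein of epithelia that inhibits no protease in the usual way, read 21.2 and 297 in AAT-treated fat, 168 and 176 in diabetic fat, and 285 and 73.0 in normoglycemic fat. Of 17 keratinocyte and mammary epithelial markers 12 passed the filter. All 17 summed to 2526 and 18279 in AAT-treated fat, 4784 and 3323 in diabetic fat, and 6475 and 3727 in normoglycemic fat. The part of these markers in the Serpinb5 values was not tested. Serpinb5 and Serpinb11 shared a pattern with Serpina3i, Serpinb6b, Serpinb6e and Serpinb9b. The highest 2 signals of all 6 genes were on AAT-treated 2 and normoglycemic 1, the arrays with bright hybridisation controls. The same was true of 20.7% of all genes kept, and of 8 of the 22 serpins under the filter beside 21.5% of all genes under it.

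The remaining kept serpins do not act as protease inhibitors. Serpinh1, or HSP47, is the chaperone of the endoplasmic reticulum that holds procollagen in its folded form. It read 1926 and 2037 in AAT-treated fat, 2542 and 8292 in diabetic fat, and 1274 and 2510.2 in normoglycemic fat. Both diabetic arrays lay above the other 4, but diabetic 1 exceeded normoglycemic 2 by little, and diabetic 2 stood far above the rest. Like the probe sets named for Serpina1b, this one is of the class marked as able to bind other transcripts. The log2 difference was -1.19 ± 0.55 for AAT-treated against diabetic fat (limma, unadjusted p = 0.0629, adjusted p = 0.961) and 1.33 ± 0.55 for diabetic against normoglycemic fat (unadjusted p = 0.0422, adjusted p = 0.498), and these share the diabetic arrays. Without diabetic 2 they were -0.35 and 0.49, and without diabetic 1 they were -2.03 and 2.16.

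A second Serpinh1 probe set read 2046 and 1389 in AAT-treated fat, 783 and 4110.3 in diabetic fat, and 482 and 2379 in normoglycemic fat. Here too diabetic 2 was highest, but the groups overlapped, and the differences were -0.10 for AAT-treated against diabetic and 0.70 for diabetic against normoglycemic fat. Collagen genes, whose products Serpinh1 folds, had a log2 difference above 0 for 13 of 14 members in diabetic against normoglycemic fat, where 46.4% of all genes did, with a median of 0.90. For AAT-treated against diabetic fat it was above 0 for 1 of 14, where 51.2% of all genes did, with a median of -0.50. At an unadjusted p under 0.05, 4 were higher and 0 lower in diabetic than in normoglycemic fat, beside 5.27% and 4.62% of all genes. In AAT-treated against diabetic fat 1 was higher and 2 lower, beside 2.95% and 1.83%. Col1a1, the main chain of type I collagen, differed by 1.37 ± 0.44 for diabetic against normoglycemic fat and by -1.29 ± 0.44 for AAT-treated against diabetic fat. The summed collagen signal was 46538 and 28513 in AAT-treated fat, 29172 and 90830.3 in diabetic fat, and 18235 and 38051 in normoglycemic fat, so diabetic 2 was the high array there as well. Fibroblast markers lay above 0 for 10 of 11 members in diabetic against normoglycemic fat, where 46.4% of all genes did. Their median was 0.69, beside -0.06 over all genes, and 3 were higher at an unadjusted p under 0.05, beside 5.27%. Their summed signal was 61023 and 60954 in AAT-treated fat, 40307 and 65032 in diabetic fat, and 37884 and 34102 in normoglycemic fat. Of 22 measured genes of procollagen folding, 1 was higher (Calr, the chaperone calreticulin, by 1.90 ± 0.67) and 1 lower (Sec24d, of the secretory coat, by -0.98 ± 0.39) in diabetic than in normoglycemic fat, a share near that of all genes, and 3 were higher in AAT-treated than in normoglycemic fat, beside 3.43%. The part of array diabetic 2, of fibroblasts and of the beta-actin ratio in the Serpinh1 and collagen values was not tested.

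Serpinf1 encodes pigment epithelium-derived factor, a non-inhibitory serpin secreted by fat cells that binds the lipase Pnpla2. It read 2162 and 1404 in AAT-treated fat, 1259 and 3386 in diabetic fat, and 891 and 1443 in normoglycemic fat. The log2 differences were -0.24 ± 0.49 for AAT-treated against diabetic, 0.83 ± 0.49 for diabetic against normoglycemic and 0.59 ± 0.49 for AAT-treated against normoglycemic fat. A second probe set gave the opposite sign in all 3, at 0.65, -1.22 and -0.56. It read 440 and 1043 in AAT-treated fat, 301 and 545 in diabetic fat, and 1088 and 1007 in normoglycemic fat, so no direction can be given for Serpinf1.

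**Figure D3:**
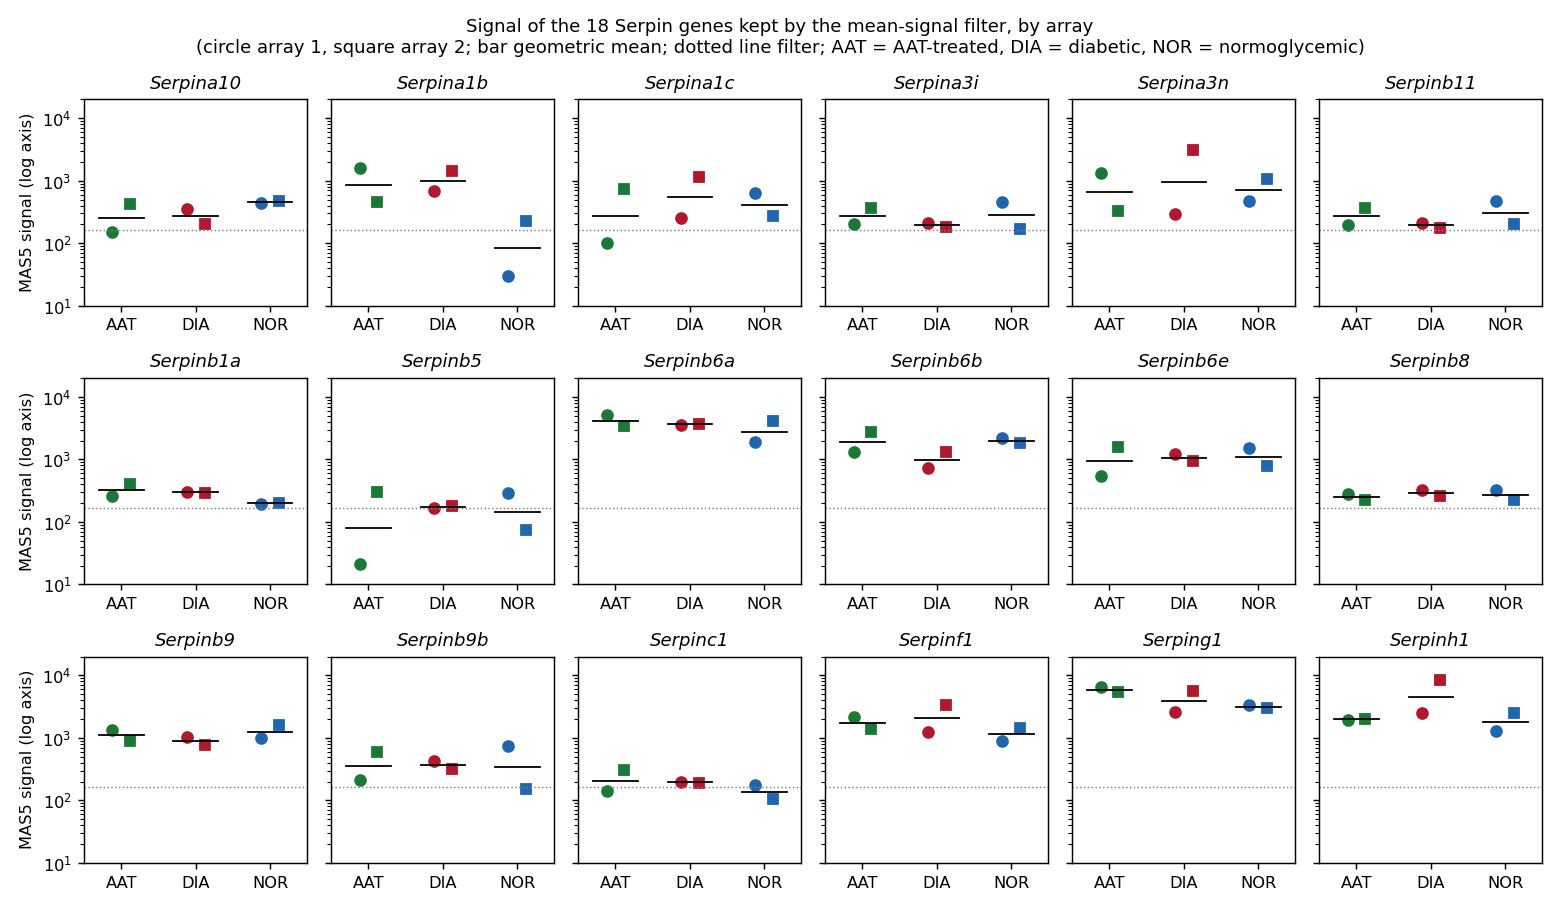
MAS5 signal (log axis) of the 18 serpins kept by the filter, with groups from left to right AAT-treated (AAT), diabetic (DIA) and normoglycemic (NOR), a circle for array 1, a square for array 2, a bar for the geometric mean and a dotted line at the filter of 164. Serpina1b lies lowest on both normoglycemic arrays, and Serpinh1 and Serpina3n have their highest point on diabetic 2.

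Taking the 18 genes as a list, 1 of them (Serpinh1) had groups without overlap for AAT-treated against diabetic fat, where 33.8% of all genes did (17.9% higher and 15.9% lower). For diabetic against normoglycemic fat there were 6, beside 44.7% of all genes (20.2% higher and 24.5% lower). Serpina1b, Serpinb1a, Serpinc1 and Serpinh1 were higher, and Serpina10 and Serpinb6b lower. For AAT-treated against normoglycemic fat there were 4, beside 32.1% of all genes (16% higher and 16.1% lower), with Serpina1b, Serpinb1a and Serping1 higher and Serpina10 lower. At an unadjusted p under 0.05 by limma, 0 serpins were counted for AAT-treated against diabetic fat, where 4.78% of all genes were (2.95% higher and 1.83% lower). There were 2 for diabetic against normoglycemic fat, beside 9.89% of all genes, and 1 for AAT-treated against normoglycemic fat, beside 5.15% (3.43% higher and 1.72% lower). The count of 2 is Serpina1b and Serpinh1, and the count of 1 is Serpina1b.

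The median log2 difference of the 18 genes was -0.04 for AAT-treated against diabetic fat, 0.18 for diabetic against normoglycemic fat and -0.07 for AAT-treated against normoglycemic fat, where the medians of all genes were 0.01, -0.06 and -0.03. The log2 difference was above 0 for 8, 12 and 8 of the 18 serpins, and for 51.2%, 46.4% and 48% of all genes. It exceeded 2-fold in either direction for 1, 2 and 1 of the serpins, and for 5.53%, 11% and 6.79% of all genes. Individual serpins ran from -1.19 to 0.90, from -0.98 to 2.59 and from -0.66 to 2.40. The median size of a difference, whatever its sign, was 0.26, 0.42 and 0.25 among the serpins, beside 0.30, 0.40 and 0.33 among all genes. Under at least 1 of the other settings tried, the sign turned for 13 of the 18 serpins in AAT-treated against diabetic, 10 in diabetic against normoglycemic and 11 in AAT-treated against normoglycemic fat.

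**Figure D4:**
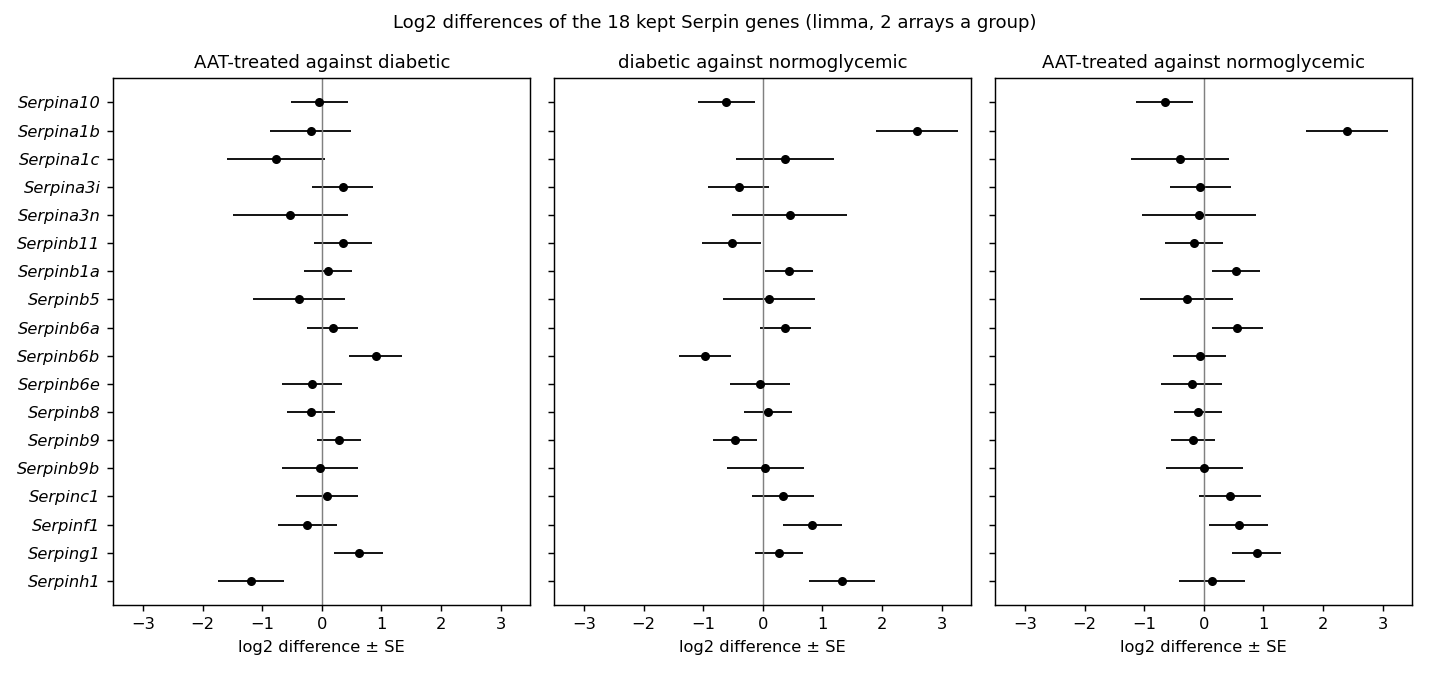
Log2 difference ± SE (x axis) of each of the 18 kept serpins in the 3 comparisons, from limma with 2 arrays a group, with a line at 0. Serpina1b lies at 2.59 and 2.40 against normoglycemic fat and near 0 for AAT-treated against diabetic fat, and most other genes lie within 1 on either side.

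The 22 serpins under the filter had mean signals of 12.3 to 150.7, and 12 of them stayed under 164 on every array. Nearest to the filter, Serpinb5 and Serpinc1 had means of 170.1 and 185 just inside it, and Serpinb7 and Serpinf2 had means of 150.7 and 127 just outside. Vaspin (Serpina12), an adipokine of visceral fat, read 16.2 and 34.0 in AAT-treated fat, 22.2 and 8.52 in diabetic fat, and 13.6 and 14.5 in normoglycemic fat. Serpinb2, the plasminogen activator inhibitor of macrophages and epithelia, read 25.1 and 23.8 in AAT-treated fat, 77.2 and 137 in diabetic fat, and 7.12 and 98.3 in normoglycemic fat, so both diabetic arrays lay above both AAT-treated ones. Serpini2, a serpin of the pancreas, read 51.5 and 137 in AAT-treated fat, 62.3 and 88.5 in diabetic fat, and 232 and 15.6 in normoglycemic fat, with overlap in every comparison.

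When all genes were fitted with no filter, Serpinb1b, a relative of Serpinb1a, differed by 0.75 ± 0.31 for AAT-treated against diabetic fat (limma, unadjusted p = 0.0403), at signals of at most 92.6. Serpinb12 differed by -0.94 ± 0.35 for AAT-treated against normoglycemic fat (unadjusted p = 0.0256), at signals of at most 116. Neuroserpin (Serpini1), which inhibits tissue plasminogen activator in the nervous system, read 113 and 196 in AAT-treated fat, 124 and 189.9 in diabetic fat, and 75.2 and 13.6 in normoglycemic fat. These 3 genes were chosen after their values were seen, and their adjusted p-values were 0.603 or higher. Plasma serpins of the liver under the filter included Serpina6, which carries corticosteroids, at 20.2 to 122 over all arrays, Serpina7, which carries thyroxine, at 10.6 to 56.2, Serpind1 (heparin cofactor II) at 12.9 to 319, and Serpinf2, the plasmin inhibitor alpha-2-antiplasmin, at 21.9 to 428. Serpinf2 differed by -1.18 ± 0.68 for AAT-treated against normoglycemic fat in that fit.

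Of the other clade A genes under the filter, Serpina11 ranged over the 6 arrays from 7.47 to 18.1, Serpina5 (the protein C inhibitor) from 4.69 to 32.7, Serpina9 from 3.74 to 116, Serpina3a from 15.9 to 239.8 and the pseudogene Serpina4-ps1 from 5.67 to 255. Of the other clade B genes, Serpinb3a ranged from 13.9 to 32.0, Serpinb9d from 5.64 to 38.2, Serpinb9g from 19.5 to 147, Serpinb6c from 11.2 to 259.5 and Serpinb7 from 74.1 to 286. Serpinb9c read 6.67 and 226 in AAT-treated fat, 5.71 and 12.52 in diabetic fat, and 237 and 57.0 in normoglycemic fat, and differed by -1.28 ± 0.64 for diabetic against normoglycemic fat in the fit with no filter. It was high on AAT-treated 2 and normoglycemic 1, the arrays with bright hybridisation controls.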

How the data were processed

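Per the submitters' processing notes, the deposited values are MAS5 signal intensities, 1 per probe set and array on a linear scale, for 45101 probe sets on 6 arrays. The MAS5 version is not given in the sources used here. RNA came from Trizol extraction and single-cycle labelling, per the labels' protocols. Arrays shared a trimmed mean of 500 and were not rescaled, and detection calls were not used here. Genes were named from the platform annotation, updated through RefSeq (0 symbols changed). Of the probe sets, 34945 had 1 symbol, and the 932 with several were left out of the genes tested.

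Values were taken as log2(signal + 74), 74 being the 25th percentile. Probe sets with a mean signal above 164 (40th percentile) were kept, and the brightest stood for its gene. Group means were fitted with limma 3.58.1 in R 4.3.3 (eBayes with trend, 2-sided, 3 residual and 5.37 prior degrees of freedom) and, for a robust alternative, statmod 1.5.0. Benjamini-Hochberg adjustment ran over 13058 genes in each comparison, with a threshold of 0.05. The step was tested on simulated data. The number of arrays limits the precision.

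The serpins and the gene lists were chosen with earlier results of these data known. Every serpin is accounted for, each kept one with its signal on all arrays and the others by signals or ranges. Genes of other lists are named only as up to 4 with the smallest unadjusted p, or as defining markers. Alternatives changed the normalization, offset, filter, variance model and probe sets, added a replicate block, and left out arrays.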

Additional observations from a re-analysis of the deposited data

How the results depend on the processing

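No serpin passed the adjusted threshold in any comparison under any setting run. The number at an unadjusted p under 0.05 was 0 for AAT-treated against diabetic fat, and 1 with no filter, 1 with a replicate block, 1 without the 2 arrays of brightest hybridisation controls (chosen after seeing the data) and 0 to 2 with any array left out. It was 2 for diabetic against normoglycemic fat, and 1 with eBayes without trend, 1 without those 2 arrays and 1 to 4 with an array left out. For AAT-treated against normoglycemic fat it was 1, and 3 with no filter, 2 without those 2 arrays and 0 to 2 with an array left out. The median of the serpins for AAT-treated against diabetic fat, -0.0384, turned to 0.0283 with quantile normalization and to 0.0317 with no filter, and ran from -0.0384 to 0.41 with an array left out. For diabetic against normoglycemic fat, 0.18 turned to -0.0133 with no filter and ran from -0.13 to 0.37. For AAT-treated against normoglycemic fat, -0.0656 turned to 0.0207 with quantile normalization and to 0.20 without those 2 arrays, and ran from -0.0656 to 0.37. The cause of these shifts was not tested. With no filter the fit held 40 serpins in place of 18, since dim genes were added. In that fit 3 were at an unadjusted p under 0.05 for diabetic against normoglycemic fat. The smallest p among the added serpins there was 0.0632, for Serpini1 (limma, unadjusted). Deviations of same-numbered arrays from their group means correlated at -0.116 (AAT-treated and diabetic), 0.075 (diabetic and normoglycemic) and -0.505 (AAT-treated and normoglycemic), and the numbers are not known to pair the samples. The replicate block changed no other count. Signals near the offset limit what can be measured of the dim genes.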
